A study of Drosophila melanogaster with 6 samples.

Results

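The genes described here encode the Mediator complex, the TBP-associated factors (TAFs) of TFIID, the general transcription factors TFIIA to TFIIS and subunits of RNA polymerase II (Pol II). They were chosen by name: a gene was a member when a probe set with exactly 1 gene symbol carried a symbol starting with MED or Taf and a digit, or with TfII, RpII or Polr2, and the brightest probe set stood for each gene. This gave 51 genes out of 11981 named on the array, from 53 matching probe sets. They comprised 22 Mediator subunits, 13 TAFs, 9 genes for the factors from TFIIA to TFIIS and 7 Pol II genes. The RNA came from Drosophila melanogaster embryos aged 1 to 2 h on 6 Affymetrix Drosophila Genome 2 arrays. The zld group held 3 arrays of embryos from zelda (zld) germ-line clones, in which the germ cells that make the egg are mutant, so that the eggs lack normal maternal zld function. The yw group held 3 arrays of yw embryos, which the labels call wild type. The labels give neither the zld allele nor the embryos' own genotype, and each sample is RNA of whole collected embryos, so fewer cells of a kind and less RNA per cell cannot be told apart.

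Transcription by Pol II starts when TFIID, built of TBP and TAFs, settles on a promoter and TFIIA, TFIIB, Pol II with TFIIF, TFIIE and TFIIH join it. Mediator, a large complex with head, middle and tail modules around the scaffold subunit MED14 and a separable kinase module, carries signals from activators to this assembly. The early fly embryo is nearly silent in transcription and receives RNA and protein from the mother. Zelda is a maternally supplied zinc finger factor that acts at early zygotic enhancers and promoters as the embryo's own genome is switched on. The comparison asked how transcripts differed between embryos with and without normal maternal zld function, and here it is read for the machinery that transcription itself needs.

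Values are array signals on a linear scale as scaled by the authors. Fold changes are zld over yw on the log2(signal + 16) scale, from limma over all 18769 probe sets that were not controls, with Benjamini-Hochberg adjustment over all of them. A gene was called at an adjusted p under 0.05. The background level was set at 18.1, the 95th percentile of the signals at 27 control probe sets for Bacillus genes, which flies lack. Array medians were 18.3, 17.7 and 16.4 in the zld group and 20.3, 23.3 and 20.4 in the yw group, so every zld median lay below every yw median. The correlation of log2 signals across probe sets was 0.982 to 0.992 within groups and 0.971 to 0.982 between them. The zld transcript itself had signals of 263, 196 and 215 in the zld group and 1023, 1062 and 967 in the yw group, a log2 fold change of -2.11 with an adjusted p of 1.92e-04 (limma; SE 0.11). The maternal transcripts bcd, osk and nanos were bright in both groups, with a summed signal of 4741 to 5696 on the zld arrays and 4415 to 5645 on the yw arrays. The early zygotic genes sna, twi and ftz summed to 300 to 327 on the zld and 403 to 561 on the yw arrays, with sna and ftz called lower. For 3 eggshell genes of follicle cells the sums were 46.6 to 53.2 and 57.8 to 75.2, with 0 called. Of these, Cp36 was above background on 0 of the 6 arrays, Cp38 on 2 and Vm26Aa on 6, so the sums include signals that cannot be told from background. Of 6 genes of later muscle and matrix 4 were measured. Signals were above background on 1 of the 6 arrays for Mlc2, 2 for vkg, 4 for Col4a1 and 5 for Mlc1. The summed signal of these genes was 263 and 354 on yw replicates 1 and 2 but 72.2 on yw replicate 3 and 32.7 to 53.8 on the zld arrays.

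All measured members but 1 were detected as RNA in both groups. Polr2A, Polr2B, Polr2C, Polr2F, Polr2I, Taf2 and MED22 were not analysed, so this does not cover the whole machinery. Of the 51 members, 50 had a signal above background on all 6 arrays, as did 41.6% of all probe sets tested, and 45 had signals above 100 on all 3 yw arrays, as did 30.5% of all probe sets. Mean signals of these 50 members in yw embryos ran from 77.9 to 1418; signals of different probe sets were not ranked, since probes differ in brightness per transcript. The exception was TfIIA-S-2, a second gene for the small TFIIA subunit, with signals of 0.7 to 4.6 in yw and 0.6 to 1.6 in zld embryos, below background on every array. RNA loaded by the mother and RNA made by the embryo cannot be told apart in these samples.

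None of the 51 members passed the test in either direction (limma). Over all probe sets 0.778% were called lower and 0.863% higher, so that a list of this size would hold few calls at the background rate. At an unadjusted p under 0.05 there were 9 members, 1 lower and 8 higher, where 8.67% of all probe sets were lower and 6.69% higher at this level. The 9 are 17.6% of the members, beside 15.4% of all probe sets and 20.5% of those with a mean above background. The test named in the methods called 0 members, but over all probe sets it called only 0 lower and 2 higher. It did not call zld itself, so its 0 calls could not show whether the members changed. It gave 5 members at an unadjusted p under 0.05, beside 2491 of all 18769 probe sets. The lowest adjusted p of a member was 0.0835 (limma). The arrays of the groups did not overlap for 9 members: all 3 zld arrays lay below all 3 yw arrays for Taf4 and TfIIEbeta, and above them for Polr2E, TfIIB, TfIIFbeta, MED17, MED4, MED25 and MED30. These are 3.92% and 13.7% of the members, beside 13.6% and 8.11% of all probe sets and 15.3% and 12.8% of those with a mean above background.

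On the log2 scale used, and with the authors' scaling taken as exact, the data also bound how far these genes could have moved. The constant added to the signals understates changes of dim transcripts. Centring the arrays on their medians moved the median of all probe sets up by 0.157. The counts below therefore depend on the scaling and on the constant, and the intervals were not counted under other choices. Log2 fold changes lay within 0.1 of 0 for 24 members and within 0.2 for 37, and exceeded 0.5 in size for 3, namely MED17, Taf4 and Taf12L. The 95% interval of the difference excluded a 2-fold change in either direction for 49 of the 50 members above background, and a 1.5-fold change for 40 of them. Among all probe sets these shares were 92.1% and 61.2%, and among those with a mean above background 88.4% and 55.9%. The member whose interval reached 2-fold was Taf12L. Members were measured with a median SD between replicates of 0.121 on the log2 scale, against 0.168 for probe sets with a mean above background, and the median half-width of the interval was 0.237.

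**Figure D1:**
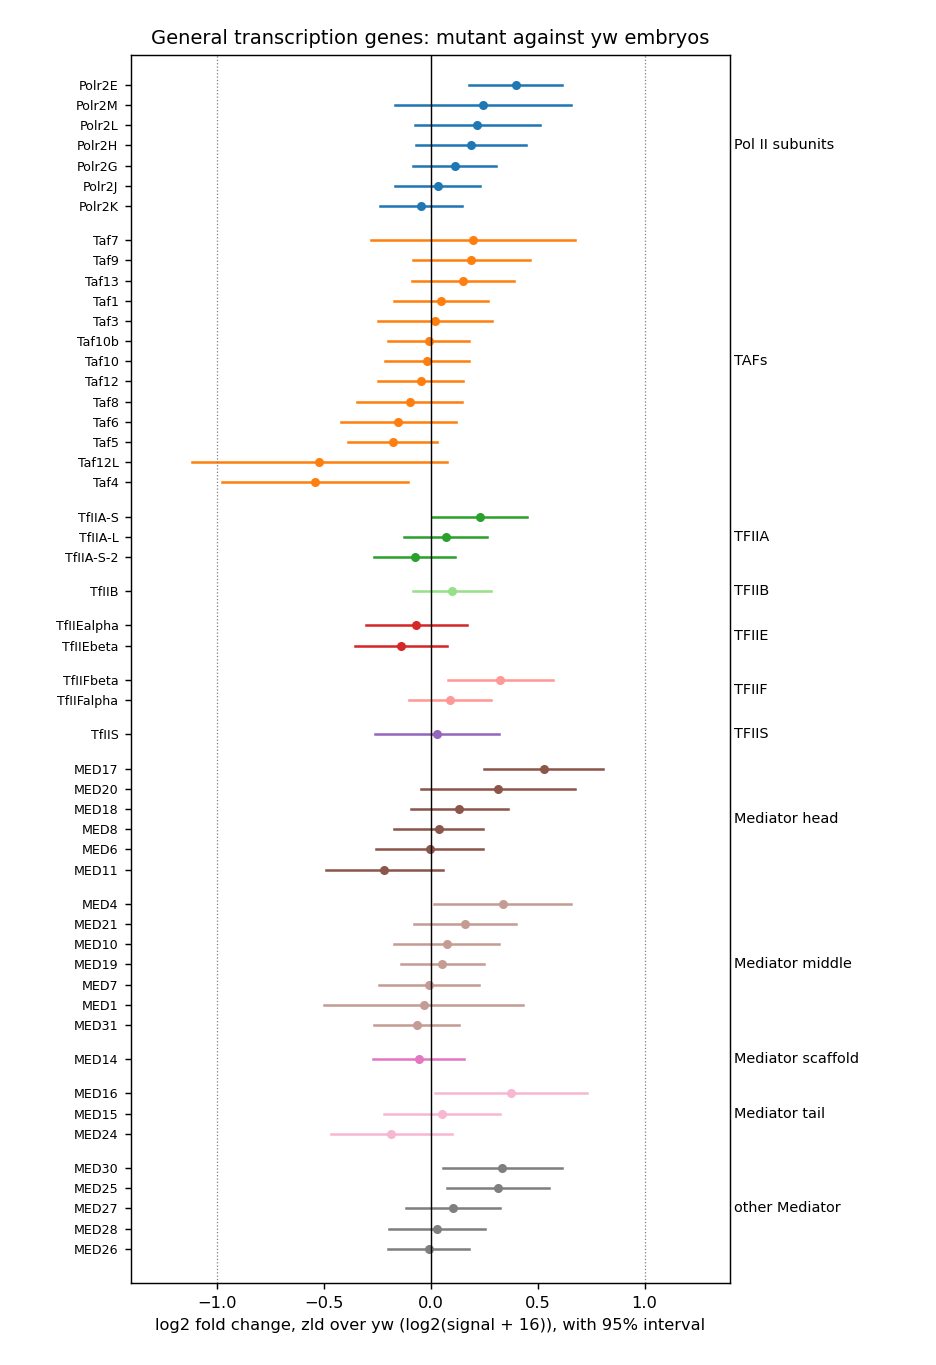
Log2 fold change of each of the 51 members, zld over yw, as a point with its 95% interval (limma, 3 arrays per group); dotted lines mark a 2-fold change and colours mark the class. No interval except that of Taf12L reaches a dotted line, and the intervals of Taf4 on the lower side and of MED17 and Polr2E on the higher side are among those clear of 0.

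By their median the members sat slightly above the rest of the array, by an amount that depended on the processing. Their median log2 fold change was 0.05, with 31 above 0 and 20 below, beside a median of -0.05 over all probe sets and -0.03 over those with a mean above background; 38.1% of all probe sets and 44.7% of those with a mean above background were above 0. No test was made over the list. The number of members above 0 depended on the scaling: with the arrays centred on their medians, which moved the median of all probe sets up by 0.157, 46 members were above 0 and their median was 0.20. Such centring shifts every probe set alike, so the distance of 0.10 between the members' median and that of all probe sets could not change. With quantile normalization the medians were 0.033 for the members and -0.005 for all probe sets. They were 0.041 and -0.019 with a pseudocount of 64, and 0.05 and -0.107 with a pseudocount of 1. The 5 members that stayed below 0 with median centring were Taf4, Taf12L, MED11, MED24 and Taf5.

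**Figure D2:**
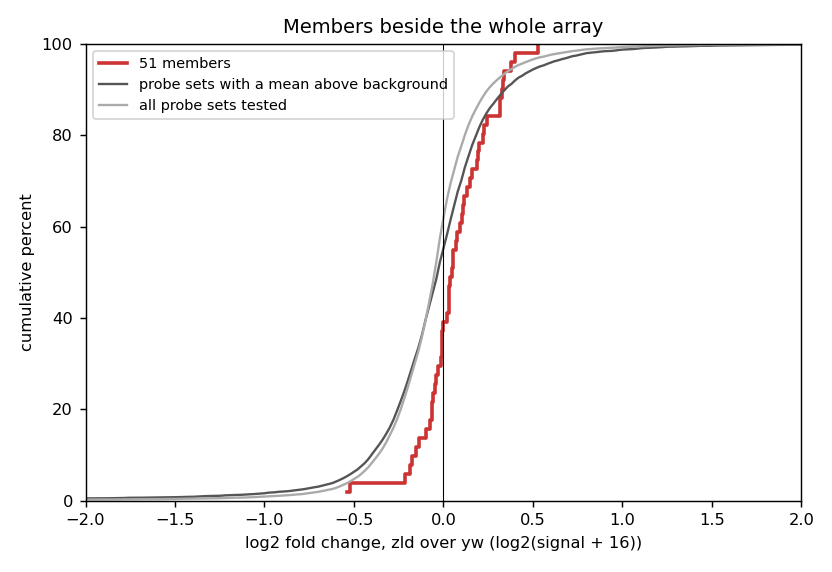
Cumulative percent of features by log2 fold change, zld over yw, for the 51 members (red), for probe sets with a mean above background (dark grey) and for all probe sets tested (light grey). The members' curve is steeper than both others, has no member beyond about -0.54 or 0.53, and crosses its middle at 0.05.

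Among the 7 Pol II genes 6 had a log2 fold change above 0 and none was called, with a median of 0.19. Polr2E, a subunit shared by RNA polymerases I, II and III, had signals of 465, 467 and 444 in yw embryos and 548, 665 and 620 in zld embryos. All zld arrays lay above all yw arrays, and the yw arrays were close together. The log2 fold change was 0.40 (SE 0.09, 95% interval 0.18 to 0.61, adjusted p = 0.0929, limma), so Polr2E missed the threshold; it passed when the arrays were centred on their medians and when the test was restricted to the brighter probe sets. Other shared subunits were Polr2L at 0.22, Polr2H at 0.19 and Polr2K at -0.04, with overlapping arrays for each. Polr2K had signals of 891, 967 and 949 in yw and 888, 962 and 874 in zld embryos, and with median centring its value was 0.11. For Polr2G, a subunit of the polymerase stalk, the value was 0.11, and for Polr2J, which helps to assemble the core, 0.03. Polr2M, known in humans as a protein that binds Pol II and keeps TFIIF away, was at 0.24 with a wide interval of -0.17 to 0.66.

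Of the 13 TAFs 8 had values below 0, the median was -0.02 and none was called. Taf4, a core TAF that pairs with Taf12 through histone folds and is contacted by activators, had signals of 418, 602 and 388 in yw embryos and 329, 250 and 369 in zld embryos. The groups did not overlap, but the highest zld array lay only just under the lowest yw array, and yw replicate 2 stood above the rest. Its log2 fold change was -0.54 (SE 0.19, 95% interval -0.98 to -0.10, adjusted p = 0.227, limma). A second probe set of Taf4 gave nearly the same value, -0.53 (adjusted p = 0.142, limma), also with separate arrays. Both probe sets carry the suffix for sequence shared between transcripts of different genes. The probe sets used for zld, Taf12, MED6, MED26 and MED31 carry this suffix too. Without yw replicate 2 the value was -0.35, and without yw replicates 1 and 2, the arrays with the higher muscle and matrix signals, -0.30.

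Its partner Taf12 was at -0.05, with 694, 642 and 610 in yw and 592, 642 and 648 in zld embryos. Taf12L, also known as rye (ryan express), is a Taf12 relative that works in the testis. Its signals were low but above background, at 47.8, 113 and 73.1 in yw and 50.7, 38.6 and 52.2 in zld embryos. The groups overlapped, and the spread in yw embryos was wide. The log2 fold change was -0.52 (95% interval -1.12 to 0.08, adjusted p = 0.386, limma), or -0.26 without yw replicate 2 and -0.77 without yw replicate 1. A dimmer probe set of Taf12L, with mean signals of 28.7 in yw and 18.6 in zld embryos, was at -0.39. The ratio of Taf12L to Taf12 within an array was lower in zld embryos by a mean log2 difference of -0.47 (exact permutation test, two-sided, p = 0.3, n = 3 arrays each, where the smallest possible p is 0.1). Of the other testis TAFs, can, nht and sa were below background on all arrays, and mia was at 0.44 (adjusted p = 0.288, limma), with 41.3, 59.1 and 39.3 in yw and 63.2, 67.8 and 73.9 in zld embryos.

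The remaining TAFs were within 0.2 of 0. Taf5 and Taf6, scaffold TAFs of the TFIID lobes, were at -0.18 and -0.15, and Taf9, the histone-fold partner of Taf6, was at 0.19. Taf5 had signals of 418, 436 and 472 in yw and 420, 368 and 379 in zld embryos, overlapping by 1 array on each side. Taf1, the largest TAF, was at 0.05, and Taf7, which binds Taf1, at 0.20. The value of Taf7 rested on 1 array: its signals were 105, 182 and 184 in yw and 148, 197 and 190 in zld embryos, and without yw replicate 1 the value was -0.04. Taf10 and Taf10b, neighbouring genes in the RefSeq annotation, were at -0.02 and -0.01. Their signals were steady: 310 to 327 and 283 to 308 in yw, 296 to 330 and 287 to 302 in zld embryos. The ratio of Taf10b to Taf10 differed between the groups by 0.01 on the log2 scale (exact permutation test, two-sided, p = 0.9, n = 3 arrays each). Taf3, Taf8 and Taf13 were at 0.02, -0.10 and 0.15.

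In the factors from TFIIA to TFIIS, 6 of 9 values were above 0 and none was called. TfIIB, which links TBP on the promoter to the polymerase, had 989, 1036 and 995 in yw and 1071, 1044 and 1128 in zld embryos. All zld arrays lay above all yw arrays by a narrow margin, and the log2 fold change was 0.10 (SE 0.08, adjusted p = 0.586, limma), with an interval of -0.08 to 0.28. For TFIIF, which travels with Pol II, the small subunit gene TfIIFbeta had 779, 704 and 708 in yw and 808, 930 and 1031 in zld embryos. Its arrays were also separate (log2 fold change 0.33, SE 0.11, adjusted p = 0.199, limma), while those of the large subunit gene TfIIFalpha overlapped at 0.09. The ratio of TfIIFbeta to TfIIFalpha was higher in zld embryos by 0.24 on the log2 scale (exact permutation test, two-sided, p = 0.2, n = 3 arrays each). The smallest p possible here is 0.1, so this test could not decide whether the ratio differed.

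The TFIIA genes TfIIA-S and TfIIA-L, whose products stabilise TBP on DNA, were at 0.23 and 0.07. TfIIA-S had 631, 567 and 521 in yw and 702, 629 and 688 in zld embryos, with 1 yw array inside the zld range (adjusted p = 0.313, limma). TFIIE recruits TFIIH. Its subunit gene TfIIEbeta had 229, 254 and 226 in yw and 224, 202 and 214 in zld embryos, with all zld arrays below all yw arrays. The log2 fold change was -0.14 (SE 0.09, adjusted p = 0.528, limma), which became 0.02 with median centring, and TfIIEalpha was at -0.07. TfIIS, which helps a stalled polymerase to cleave its transcript and resume, was at 0.03, with 342, 446 and 372 in yw and 359, 449 and 376 in zld embryos.

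**Figure D3:**
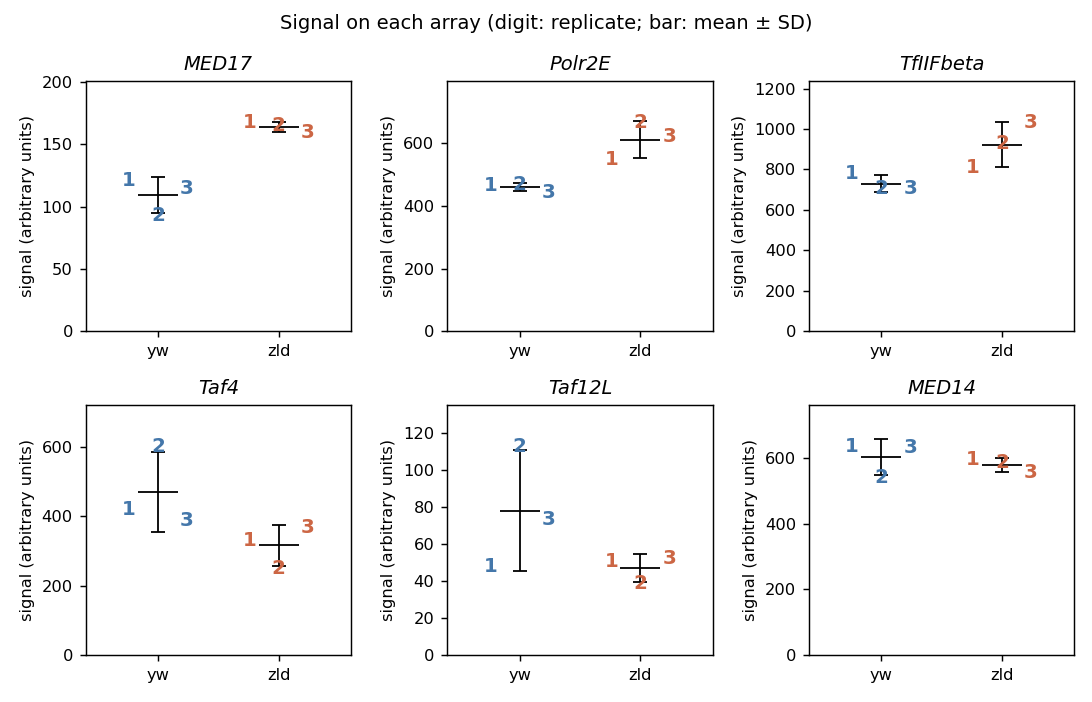
Signal on each array of 6 members (vertical axes in arbitrary units, each from 0), with digits for the replicate number and bars for the mean ± SD of 3 arrays. MED17, Polr2E and TfIIFbeta have all zld arrays above all yw arrays, Taf4 has them below, and Taf12L and MED14 overlap; yw replicate 2 is the highest array for Taf4 and Taf12L.

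Mediator subunits had 14 of 22 values above 0, a median of 0.05 and none called. In 4 of the 22 the zld arrays all lay above the yw arrays, and in 0 all below, beside 8.11% and 13.6% of all probe sets and 12.8% and 15.3% of those with a mean above background. The head module, which contacts Pol II, held MED17, the member with the largest log2 fold change above 0. It encodes a central subunit of the head and had signals of 121, 92.8 and 114 in yw and 167, 165 and 159 in zld embryos. The zld arrays agreed closely and lay clear of the yw arrays, for a log2 fold change of 0.53 (SE 0.12, 95% interval 0.25 to 0.80, adjusted p = 0.0835, limma). With median centring it was called, at 0.69 (adjusted p = 0.0347, limma). Over all alternatives the adjusted p of MED17 ran from 0.0347 to 0.272, and that of Polr2E from 0.0306 to 0.311. Without yw replicates 1 and 2 MED17 was at 0.47. Of the other head subunits, MED20 was at 0.31, MED18 at 0.13, MED8 at 0.04, MED6 at 0.00 and MED11 at -0.22, with overlapping arrays for all 5. MED11 had 216, 207 and 185 in yw and 188, 148 and 181 in zld embryos, and without zld replicate 2 it was at -0.12.

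In the middle module, MED4 had 96.3, 84.6 and 106 in yw and 107, 142 and 126 in zld embryos. Its arrays were separate by a narrow margin (log2 fold change 0.34, SE 0.14, adjusted p = 0.299, limma). MED21, which in yeast forms a hinge of the middle module with MED7, was at 0.16, and MED10, MED19, MED7 and MED31 were at 0.08, 0.05, -0.01 and -0.06, with MED31 at 0.09 under median centring. MED1, the subunit that nuclear receptors contact, was at -0.03 with the widest spread of the module, from zld replicate 2 at 426 against 249 and 232 on the other zld arrays. MED14, the scaffold of the complex, had 635, 541 and 632 in yw and 594, 585 and 555 in zld embryos. Its groups overlapped at -0.06 (95% interval -0.27 to 0.16), or 0.10 with median centring.

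In the tail module, which activators contact, none of the 3 measured subunits was called. MED16 was at 0.37 (adjusted p = 0.298, limma), with 104, 71.7 and 80.4 in yw and 114, 128 and 103 in zld embryos, overlapping by 1 array. MED24 was at -0.18, with 380, 318 and 303 in yw and 284, 332 and 260 in zld embryos (-0.28 without zld replicate 2, -0.11 without zld replicate 3 and -0.09 without yw replicate 1), and MED15 at 0.05. Among the other subunits MED25, which in mammals binds activation domains, had 166, 149 and 141 in yw and 195, 202 and 181 in zld embryos. The groups were separate at 0.31 (SE 0.10, adjusted p = 0.2, limma). MED30 was likewise separate at 0.33 (SE 0.12, adjusted p = 0.24, limma), with 99.2, 106 and 125 in yw and 154, 136 and 139 in zld embryos. MED27 and MED28 were at 0.11 and 0.03. MED26, which in mammals links Mediator to TFIID and elongation factors, was at -0.01 with 1269, 1359 and 1282 in yw and 1237, 1330 and 1320 in zld embryos; with median centring it was at 0.15.

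Single arrays weighed on the members to different degrees. Of the 50 members above background, 20 had their highest value on zld replicate 2, which had a median deviation from the genes' own means of 0.08 on the log2 scale. The medians of the other arrays lay between -0.04 and 0.01. The lowest value fell on yw replicate 2 for 15 members and on yw replicate 1 for 12. Such counts were not made over all probe sets, so whether they are particular to the members was not tested. For MED17, MED4, MED16, MED20 and Polr2M the lowest array was yw replicate 2, and for Taf4 and Taf12L the same array was the highest.

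**Figure D4:**
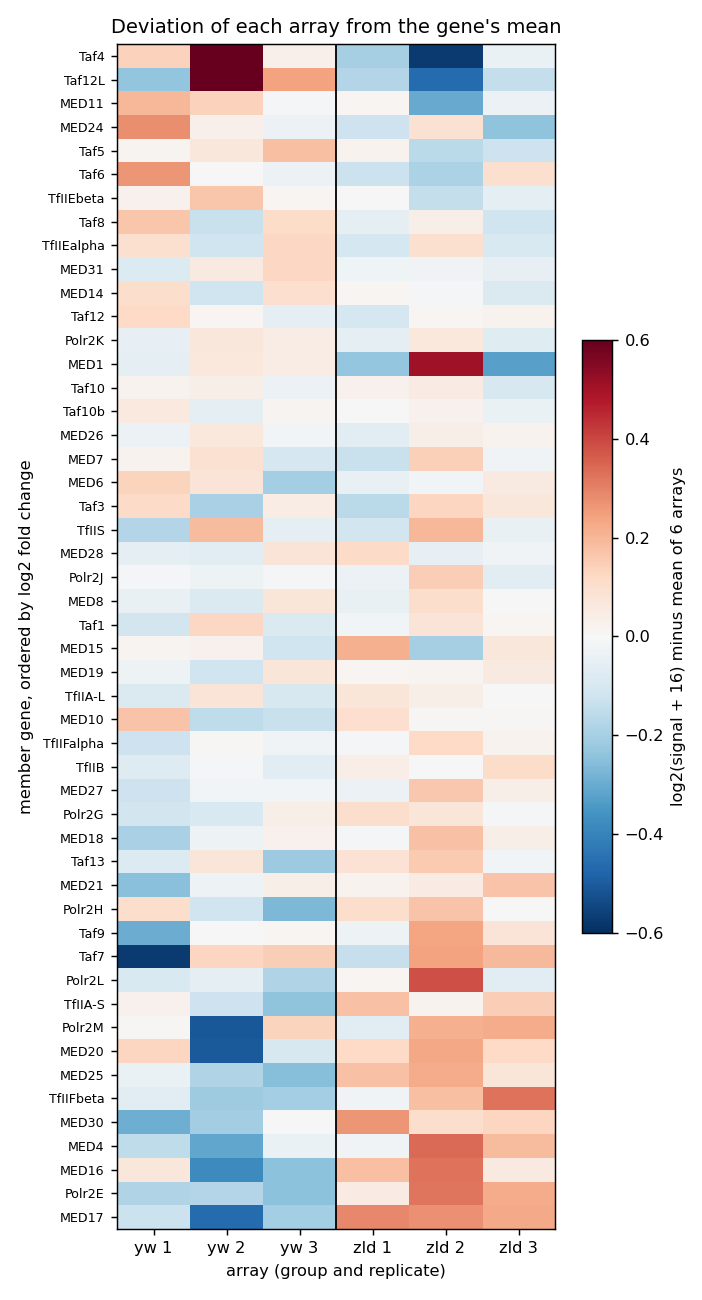
Deviation of each array from the gene's mean of 6 arrays, in log2(signal + 16), for the 50 members above background, ordered by log2 fold change from lowest (top) to highest (bottom). Red is above and blue below the gene's mean, and colours are cut at 0.6 in size; most rows are pale, and the strongest cells are single arrays such as yw replicate 2 for Taf4 and zld replicate 2 for MED1.

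Of the genes that match the naming rule in the RefSeq table, 11 of 62 had no probe set of their own here. Taf11, MED9, MED23 and Polr2D shared a probe set with another gene, and MED22, Taf2, Polr2A, Polr2B, Polr2C, Polr2F and Polr2I were not analysed here. None of the 6 shared probe sets was called. Those of MED23 with CG3700 were at -0.35 and -0.28, those of MED9 with CG42518 at -0.18 and -0.09, that of Polr2D with Ada2a at 0.16 and that of Taf11 with Gdi at 0.14. At the brighter MED23 probe set the zld arrays lay below the yw arrays, with 176, 162 and 146 in yw and 123, 136 and 110 in zld embryos (adjusted p = 0.218, limma). The same held at the dimmer MED9 probe set, with 315, 312 and 323 in yw and 294, 288 and 252 in zld embryos (adjusted p = 0.387, limma).

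The rest of the transcription machinery was taken from lists of genes known by other names. Of 60 such genes 55 were measured, with 1 called lower, 0 called higher and a median log2 fold change of -0.02. Over all probe sets 0.778% were called lower and 0.863% higher, so lists as short as these would hold few calls or none at that rate. TBP itself (Tbp) was at -0.12, with 427, 324 and 347 in yw and 306, 344 and 351 in zld embryos, and at 0.04 with median centring. Its relatives Trf and Trf2, which replace TBP at some promoters, were at 0.26 and 0.00, Trf2 changing sign between alternatives. None of 9 TFIIH genes was called, with values from -0.31 to 0.29. In the kinase module of Mediator, 0 of 4 were called: the kinase gene Cdk8 was at 0.35, CycC at -0.03, kto at -0.08 and skd at -0.25. Among 13 genes of promoter-proximal pausing and elongation 0 were called, with values from -0.21 to 0.27, and among 4 of SAGA and acetylation 0, from -0.11 to 0.41. The phosphatase gene Fcp1, whose product removes phosphates from the Pol II tail, was at 0.49 with separate arrays (adjusted p = 0.0797, limma; 0.028 with median centring), and Ssu72 at -0.19.

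The called gene belongs to RNA polymerase III, which makes transfer RNAs and other short RNAs. Polr3A, its largest subunit, fell from 242, 279 and 275 in yw to 103, 137 and 115 in zld embryos. The groups were far apart, with a log2 fold change of -1.07 and an adjusted p of 0.0062 (limma; SE 0.12). The call ended without zld replicate 3 (adjusted p = 0.0518) and without yw replicates 1 and 2 (adjusted p = 0.0768), with values of -1.06 and -1.12. Polr3D, another Pol III subunit, had 174, 93.5 and 142 in yw and 245, 321 and 317 in zld embryos. Its arrays were separate the other way, at 1.05 (SE 0.20, adjusted p = 0.0503, limma), just outside the threshold, and it passed under 6 alternatives, among them a pseudocount of 1 and median centring. The other 14 measured genes of Pol I and Pol III had values from -0.26 to 0.38.

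**Figure D5:**
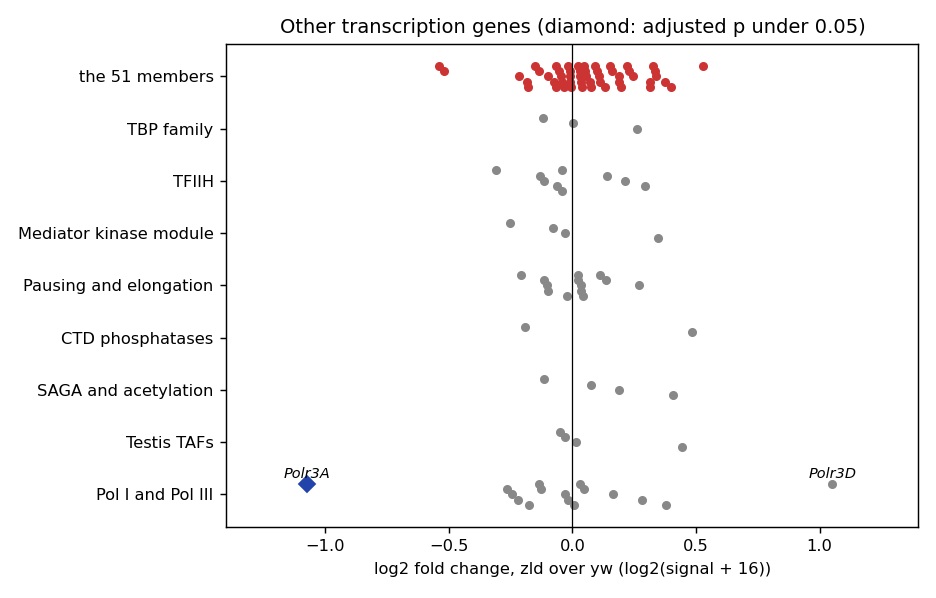
Log2 fold change, zld over yw, of the 51 members (red) and of the measured genes of 8 other lists (grey), 1 point per gene, with a diamond for an adjusted p under 0.05. Polr3A at -1.07 is the only diamond and Polr3D lies at 1.05; all other points lie between -0.54 and 0.53.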

How the data were processed

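The authors deposited 1 linear intensity for each probe set on each array. Per the series text, they used Affymetrix GeneChip Operating Software for processing and normalization (version not given in the sources used here). Trimmed means (2% off each end) were 150 on all 6 arrays, which shows a global scaling by the authors. Of 18952 probe sets, 183 controls were left out; 13646 of 18769 had exactly 1 symbol, and 13543 of these were found in the RefSeq gene table (GCF_000001215.4), which updated symbols. limma 3.58.1 (R 4.3.3; lmFit, eBayes with trend) was run on log2(signal + 16), which understates changes of dim transcripts. It was also run on simulated arrays with independent noise and planted changes of 2-fold or more in brighter probe sets. That run does not cover smaller changes or shifts shared between arrays. Permutation tests used scipy 1.17.1. Alternatives were pseudocounts of 1 and 64, no dim probe sets (mean below the median), quantile normalization, median centring, no trend, the methods' t-test, the replicate block, array weights, no probe sets suffixed _s_at or _x_at, each array left out, the mean of a gene's probe sets and, added later, no yw replicates 1 and 2.

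Members, gene lists and tests were chosen with earlier results of these data known. Values are given in full for the member with the highest and lowest log2 fold change of each class, called genes of the other lists, Tbp, Trf and Trf2. Other genes named with values were chosen after these were seen, as were the gene pairs whose ratios are given. The sample protocol speaks of duplicate and the series text of 3 replicate collections, so p-values may cover only the spread between samples that share a collection. The number of arrays limits the precision. No sequence was used here.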

Additional observations from a re-analysis of the deposited data

How the results depend on the processing

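Under all 18 alternatives 0 members were called lower. Members called higher numbered 0 except 1 with dim probe sets left out (Polr2E) and 2 with median centring (MED17 and Polr2E), which also took the members' median to 0.205; with single arrays left out that median ran from 0.036 to 0.069, with 0 calls. For all probe sets, 146 lower and 162 higher became 264 and 327 with dim probe sets left out, 127 and 552 with median centring (81.3% of calls higher against 52.6%), 0 and 2 with the methods' t-test (members: 0 called, 5 at an unadjusted p under 0.05), and 43 and 51 without yw replicates 1 and 2, chosen after seeing the data. Leaving out 1 array gave 45 to 213 lower and 35 to 227 higher. With the replicate number as a block there were 76 lower and 75 higher, and 0 members; same-numbered arrays correlated at 0.171, -0.015 and -0.032 in their deviations, and not every array correlated best with its own number, so the numbers were not taken as pairs. The calls of Polr3A and zld ended with the methods' t-test (adjusted p = 0.102 and 0.0836), with the sign kept. Signals near 18.1 cannot be told from background.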
